A study of Mus musculus with 8 samples.

Results

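Macrophages, Langerhans cells and their myeloid relatives were followed in embryonic mouse skin through 39 marker genes, taken from general knowledge of these cells and found by symbol among 19938 named genes on the array. Each of the 39 genes had 1 transcript cluster (the array's unit of measurement for a gene) with exactly 1 gene symbol. The samples were full-thickness skin of embryos at day E17.5 of a mixed C57BL6/SV129 background: 4 RNAs from embryos labelled PpargΔ/Δ and PPARgamma null, called Pparg null here, and 4 RNAs from embryos labelled PPARgamma wildtype, called control. Each RNA was read on 1 array, and no treatment is named in the labels. Neither the way the Pparg allele was deleted nor the litter or sex is in the labels, so a p-value compares the groups with the spread of these 8 RNAs, which may share litters. Pparg encodes PPARgamma, a nuclear receptor of adipocytes that macrophages also use, and the question of the series was what its loss does to the transcripts of skin.

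Tissue macrophages are phagocytes that settle in the skin before birth. They depend on the growth factor receptor Csf1r and on the transcription factor PU.1, encoded by Spi1, clear dying cells and debris with scavenger receptors, bind antibody through Fc receptors, and are a main source of the complement protein C1q. Langerhans cells are their relatives in the epidermis, which enter it as precursors in the embryo, gain langerin (Cd207) and MHC class II late, and present antigen.

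Values are log2 values after RMA, so a difference of 1 is a doubling, and levels of different genes are not set against each other because each cluster has its own probes. A gene was tested if 4 or more of the 8 arrays read its cluster above their 30th percentile, which held for 36 of the 39 genes. The cluster of Pparg itself read 9.14, 9.19, 9.19 and 8.98 on the arrays labelled Pparg null, against 8.79, 8.88, 9.04 and 9.06 on control arrays, and so was not lower (difference of 0.18, limma adjusted p = 0.9995). The part of the gene that was deleted is not given, and a cluster outside it checks nothing about the labels. Array medians lay between 6.93 and 6.96, and pairs of arrays correlated at r = 0.989 to 0.994 across all clusters. The number of arrays, 4 a group, limits the precision.

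The myeloid genes were nearly level between Pparg null and control skin. None of the 36 measured above that level passed the test (limma, adjusted p under 0.05), where 18 of all 15174 tested genes did (0.119%). At an unadjusted limma p under 0.05 stood 2 of the 36, Siglec1 and Lyve1, both lower on the Pparg null arrays, beside 3.61% of all genes. By exact two-sided permutation over 70 assignments of the arrays Siglec1 was under 0.05, at 0.0286, which is the smallest p that 4 against 4 arrays can give. Of the 36 genes 20 lay below control and 16 above, with a median difference of -0.02 (all tested genes -0.00058), and 28 lay within 0.1 of control on the log2 scale. The differences ran from -0.28 for Siglec1 to 0.08 for Fcgr3.

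The precision of these differences varied by gene. The limma 95% interval of the difference stayed inside a 1.5-fold change in either direction for 35 of the 36 genes, and inside 1.25-fold for 25 of them. The exception at 1.5-fold was H2-Ab1, whose interval ran from -0.69 to 0.32. These intervals are not adjusted for the number of genes. In RNA of whole skin, fewer cells of a type and less RNA per cell cannot be told apart.

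**Figure D1:**
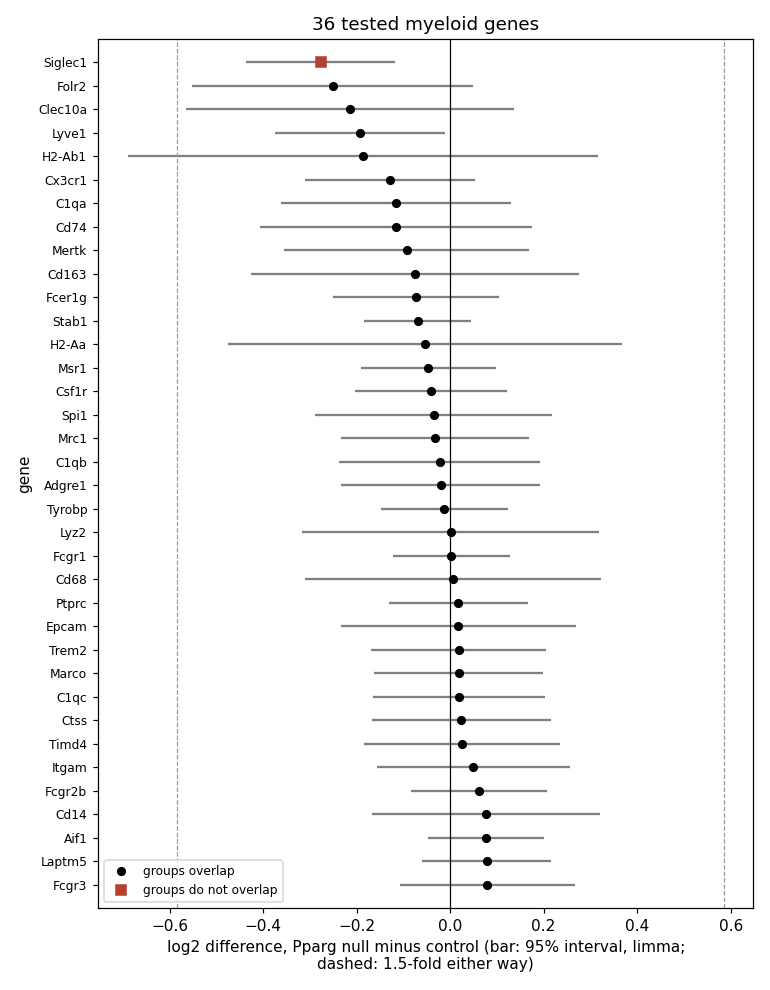
Difference of each of the 36 tested myeloid genes, Pparg null minus control, on the log2 scale (horizontal axis), with the gene on the vertical axis, bars for the limma 95% interval (n = 4 arrays a group) and dashed lines at 1.5-fold. Siglec1, the square at the top, is the one gene whose groups did not overlap, and H2-Ab1 is the one gene whose interval crosses a dashed line.

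PU.1 binds short purine-rich letters with the core GAGGAA, and PPARgamma binds, with its partner RXR, a repeat of AGGTCA with 1 base between the copies. Promoter windows of RefSeq (build GRCm38.p6, 250 bases before to 50 after a start, 300 bases in all) were matched by symbol for 26 of the 39 genes, with 29 windows because some genes have several starts. Searched on both strands, GAGGAA was found in 16 of the 29 windows (55.2%) and in 28.3% of all 32851 windows. The overlapping letters AGGAAGT were found in 9 of the 29 windows (31.0%) and in 9.35% of all windows, and the longer GAGGAAGT, which holds both, in 2 of the 29 and in 3.20% of all. The repeat of AGGTCA with 1 base between was found in 0 of the 29 windows and in 0.0396% of all. It is so rare, in 13 of 32851 windows, that 29 windows cannot show whether these genes have it less often. These shares are descriptions of the letters, with no test, and the letters were chosen with their matches known. The genes with AGGAAGT were C1qb, C1qc, Ctss, Fcgr1, Folr2, Lyz2, Mrc1 and Ptprc. Of these, the windows of 2 C1q chains, which are neighbours in the genome, and of 2 receptors of resident macrophages are shown 5′ to 3′ on the gene's strand, with AGGAAGT or its reverse complement in capitals.
C1qb (chr4:136886151-136886450, minus strand): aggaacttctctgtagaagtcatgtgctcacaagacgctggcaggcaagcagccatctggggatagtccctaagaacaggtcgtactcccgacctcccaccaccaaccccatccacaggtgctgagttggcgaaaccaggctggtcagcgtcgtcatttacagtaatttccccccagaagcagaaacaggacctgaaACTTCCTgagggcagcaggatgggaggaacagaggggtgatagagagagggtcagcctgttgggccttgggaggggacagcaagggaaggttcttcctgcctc
C1qc (chr4:136892865-136893164, minus strand): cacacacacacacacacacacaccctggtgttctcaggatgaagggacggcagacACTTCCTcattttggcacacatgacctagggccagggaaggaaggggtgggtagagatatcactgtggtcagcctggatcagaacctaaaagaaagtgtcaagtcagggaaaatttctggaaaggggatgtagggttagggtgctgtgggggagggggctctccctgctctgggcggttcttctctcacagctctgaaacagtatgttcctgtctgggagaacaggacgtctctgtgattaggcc
Mrc1 (chr2:14229164-14229463, plus strand): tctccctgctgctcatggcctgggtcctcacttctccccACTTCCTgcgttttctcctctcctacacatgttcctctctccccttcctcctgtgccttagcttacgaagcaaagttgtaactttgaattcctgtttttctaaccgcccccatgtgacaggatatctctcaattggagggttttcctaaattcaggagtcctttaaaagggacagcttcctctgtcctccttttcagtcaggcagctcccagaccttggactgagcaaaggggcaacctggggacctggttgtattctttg
Folr2 (chr7:101857141-101857440, minus strand): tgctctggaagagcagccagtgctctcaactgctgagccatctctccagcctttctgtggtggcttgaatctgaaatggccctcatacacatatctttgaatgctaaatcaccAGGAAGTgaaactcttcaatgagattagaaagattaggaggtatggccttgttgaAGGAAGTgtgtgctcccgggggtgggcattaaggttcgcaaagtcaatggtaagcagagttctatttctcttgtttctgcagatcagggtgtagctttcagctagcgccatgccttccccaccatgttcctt
The capitals begin 53 bases before the start in C1qb, 195 in C1qc, 211 in Mrc1, and at 137 and 82 bases before the start in Folr2, of whose 2 starts the upstream one is shown. None of these 4 genes passed the test between Pparg null and control skin, as their values below show.

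Spi1 and Csf1r, the lineage factor and the growth factor receptor, were close to control. Spi1 read 7.90, 7.94, 7.95 and 7.44 on Pparg null arrays 1 to 4, against 7.68, 7.85, 7.92 and 7.92 on control arrays 1 to 4. Pparg null array 4 was the lowest of all 8, and the other Pparg null arrays lay near the upper end of the control range. The difference was -0.04 (95% interval -0.29 to 0.22), and 0.09 without Pparg null array 4. Csf1r averaged 8.63 ± 0.13 in Pparg null skin and 8.67 ± 0.09 in control skin (SD, n = 4 each), a difference of -0.04 (95% interval -0.20 to 0.12).

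Genes of leukocyte and macrophage identity lay on both sides of control, with 2 of 6 tested genes below, 4 above and none past the threshold. Laptm5, a lysosomal membrane protein of blood cells, read 9.62, 9.72, 9.61 and 9.55 on Pparg null arrays and 9.54, 9.64, 9.60 and 9.42 on control arrays. The groups overlapped, with a difference of 0.08 (95% interval -0.06 to 0.22). Cx3cr1, the receptor of the chemokine fractalkine, read 7.72, 7.71, 7.91 and 7.997 on Pparg null arrays and 8.09, 7.85, 7.91 and 8.02 on control arrays. Pparg null arrays 1 and 2 lay below all control arrays and the other pair within their range, a difference of -0.13 (95% interval -0.31 to 0.05). Aif1, the calcium-binding protein also called Iba1, read 5.76, 5.78, 5.89 and 5.76 on Pparg null arrays and 5.75, 5.76, 5.61 and 5.76 on control arrays. Its difference of 0.08 was 0.04 without control array 3, the one low array. The cluster was dim, above the 30th percentile on 7 of 8 arrays. Pparg null arrays 1 and 4 and control arrays 2 and 4 had an identical value, 5.75592. Adgre1, which encodes the F4/80 antigen, differed by -0.02 (95% interval -0.23 to 0.19), the leukocyte phosphatase Ptprc (CD45) by 0.02 (-0.13 to 0.17) and the integrin Itgam (CD11b) by 0.05 (-0.16 to 0.26). Itgax (CD11c), whose gene neighbours Itgam, was above the 30th percentile on 0 of 8 arrays and was not tested, with 5.27 to 5.45 on Pparg null and 5.32 to 5.60 on control arrays.

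The 3 lysosomal and granule genes had nearly the same mean in both groups. Lyz2, the lysozyme of macrophages, read 8.57, 9.03, 8.53 and 8.92 on Pparg null arrays and 8.64, 8.997, 8.48 and 8.93 on control arrays. Arrays 2 and 4 were high and arrays 1 and 3 low in both groups, and the groups covered the same range (difference of 0.00, 95% interval -0.32 to 0.32). Cd68, a lysosomal membrane glycoprotein, differed by 0.01 (95% interval -0.31 to 0.32), with 7.76 on Pparg null array 4 where the other Pparg null arrays had 8.21 to 8.48 and the control arrays 8.07 to 8.38. The protease Ctss, which trims the invariant chain, had an SD of 0.19 in Pparg null skin and 0.01 in control skin (n = 4 each) around a difference of 0.02.

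The chains of complement C1q, made from 3 neighbouring genes and joined in 1 protein, were level between the groups. C1qa read 7.85, 7.83, 7.998 and 7.48 on Pparg null arrays and 7.83, 7.77, 7.92 and 8.08 on control arrays. Pparg null array 4 was lowest and the other 3 lay within the control range. The difference was -0.12 (95% interval -0.36 to 0.13), and -0.01 without that array. C1qb read 9.25, 9.48, 9.63 and 9.30 on Pparg null arrays and 9.46, 9.31, 9.35 and 9.63 on control arrays, a difference of -0.02. C1qc read 8.25, 8.35, 8.51 and 8.11 on Pparg null arrays and 8.22, 8.25, 8.28 and 8.39 on control arrays, a difference of 0.02. In each of the 3 chains, Pparg null array 3 was the highest of its group and control array 4 the highest of the other.

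Fc receptors and their signalling adaptors lay on both sides of control, with 2 of 6 below, 4 above and none past the threshold. Fcgr3, an activating receptor for IgG, read 8.90, 8.94, 8.88 and 8.55 on Pparg null arrays and 8.71, 8.81, 8.70 and 8.74 on control arrays. Pparg null arrays 1 to 3 lay above all control arrays and array 4 below all of them. The difference was 0.08 (95% interval -0.11 to 0.27), and 0.17 without Pparg null array 4 (0.05 to 0.28, limma adjusted p = 0.826). Fcgr2b, the inhibitory receptor for IgG, read 7.89, 7.99, 7.98 and 7.74 on Pparg null arrays and 7.80, 7.85, 7.90 and 7.80 on control arrays, a difference of 0.06 (95% interval -0.08 to 0.21). As in Fcgr3, Pparg null array 4 was the lowest of all 8, while Pparg null array 1 lay within the control range. Fcgr1, the receptor of high affinity, differed by 0.00 (95% interval -0.12 to 0.13). Tyrobp (DAP12), the adaptor that passes on the signal of Trem2, differed by -0.01 (95% interval -0.15 to 0.12), and Trem2 itself, a lipid-sensing receptor, by 0.02 (-0.17 to 0.21). Fcer1g, the adaptor of Fc receptors, read 9.84, 9.96, 9.68 and 9.63 on Pparg null arrays and 9.75, 9.97, 9.85 and 9.83 on control arrays. The groups overlapped, with a difference of -0.07 (95% interval -0.25 to 0.10).

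Mast cells also make Fcer1g and Ptprc. In the list of 11 mast cell genes, 10 were tested, 7 lay below and 3 above control, and none passed over all genes. Their mean level was 9.15 to 9.32 on Pparg null arrays and 9.33 to 9.48 on control arrays, which did not overlap. The median deviation of the list from its genes' means did overlap, at -0.15 to 0.05 on Pparg null arrays and -0.04 to 0.06 on control arrays. The genes of smallest unadjusted p were Tpsab1, a tryptase, at a difference of -1.01 (control SD 0.97), the protease Mcpt4 at -0.50 and the receptor chain Ms4a2 at -0.30, none past the threshold. The mast cell receptor chain Fcer1a lay under the brightness filter. The part of mast cells in the level of Fcer1g was not tested.

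Scavenger and uptake receptors lay mostly below control, at 9 of 12 tested genes with a median difference of -0.07, and none passed the threshold over all genes. The median was -0.03 without Pparg null array 4 (8 of 12 below) and -0.12 without Pparg null array 3 (10 of 12). Siglec1, the sialic acid receptor sialoadhesin (CD169) of resident macrophages, read 6.81, 6.85, 6.66 and 6.71 on Pparg null arrays, against 7.13, 6.86, 7.03 and 7.11 on control arrays. All Pparg null values lay below all control values, the nearest pair being Pparg null array 2 and control array 2. Groups that did not overlap in this direction were found for 1.67% of all tested genes, and in either direction for 2.45%, beside this 1 of 36 myeloid genes (2.78%). Siglec1 was 1.21-fold lower, a difference of -0.28 (95% interval -0.44 to -0.12, limma adjusted p = 0.693 over all genes, exact permutation p = 0.0286). Leaving out 1 array gave differences of -0.33 to -0.24.

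Folr2 and Lyve1, which mark resident macrophages around vessels, also lay below control, with more spread. Mrc1, another receptor of resident macrophages, was nearer control at -0.03, with Cd163 at -0.08 and Timd4 at 0.02. Whether resident macrophages differed as a set was not tested. Folr2, a folate receptor, read 7.39, 7.45, 7.92 and 7.32 on Pparg null arrays and 7.73, 7.57, 7.79 and 7.99 on control arrays. Pparg null array 3 lay in the upper part of the control range and the other 3 below it. The difference was -0.25 (95% interval -0.55 to 0.05, limma adjusted p = 0.9995), and -0.39 without Pparg null array 3 (-0.60 to -0.17, adjusted p = 0.686). Lyve1, a hyaluronan receptor that lymphatic vessels also make, read 10.03, 9.90, 10.13 and 9.72 on Pparg null arrays and 10.18, 10.14, 10.08 and 10.16 on control arrays. The control arrays lay close together, and Pparg null array 3 was inside their range. The difference was -0.19 (95% interval -0.38 to -0.01, limma p = 0.0406, adjusted p = 0.9995, exact permutation p = 0.0571), and -0.12 without Pparg null array 4. Of 6 tested lymphatic endothelial genes, 2 lay below and 4 above control and none passed, with a median difference of 0.04. Their mean level was 7.87 to 8.005 on Pparg null and 7.83 to 7.98 on control arrays. The part of lymphatic vessels in the level of Lyve1 was not tested.

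**Figure D2:**
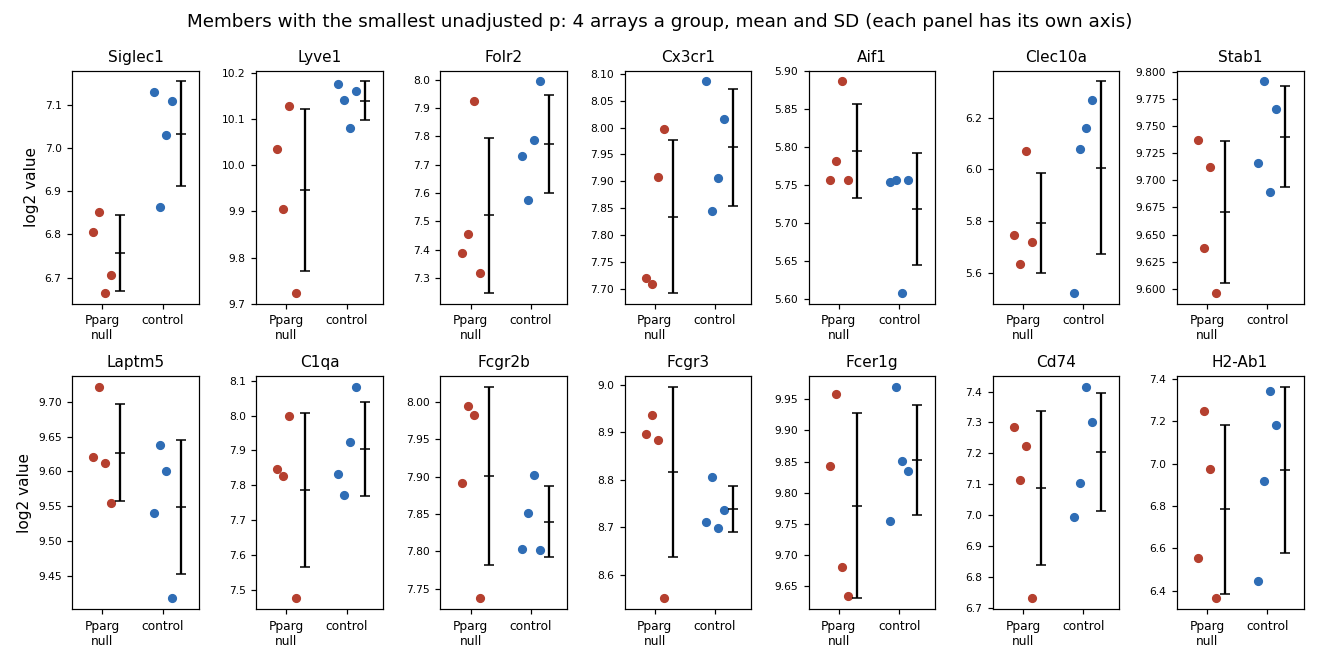
Log2 values (vertical axis, 1 scale a panel) of the 14 myeloid genes with the smallest unadjusted limma p, for 4 Pparg null arrays on the left and 4 control arrays on the right of each panel, with the mean and SD beside the points. In the panel of Siglec1 the groups do not overlap, and in those of Fcgr3, C1qa and Cd74 the Pparg null group has 1 array well below the rest, array 4.

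Among the other uptake receptors, Clec10a, a C-type lectin for galactose sugars, read 5.75, 5.63, 6.07 and 5.72 on Pparg null arrays and 5.52, 6.08, 6.16 and 6.27 on control arrays. Control array 1 was the lowest of all 8 and the other control arrays lay above all Pparg null arrays. The difference of -0.21 (95% interval -0.56 to 0.14) was -0.38 without control array 1 (limma adjusted p = 0.924). The cluster of Clec10a was dim, above the 30th percentile on 3 of 4 arrays in each group. Stab1, a scavenger receptor of macrophages and vessel walls, read 9.74, 9.64, 9.71 and 9.60 on Pparg null arrays and 9.72, 9.79, 9.69 and 9.77 on control arrays, a difference of -0.07 (95% interval -0.18 to 0.05). Pparg null arrays 2 and 4 lay below all control arrays and the other pair within their range. Mrc1, the mannose receptor, differed by -0.03 (95% interval -0.23 to 0.17), and Msr1, a scavenger receptor for modified lipoproteins, by -0.05 (-0.19 to 0.10). Cd163, the haemoglobin scavenger receptor, ran from 6.19 on Pparg null array 2 to 7.07 on Pparg null array 3, a spread that took in all control values, 6.55 to 6.80. Mertk, a receptor for dying cells, read 7.79 on Pparg null array 4 and 8.28 to 8.34 on the others of that group, against 8.19 to 8.41 on control arrays. Its difference of -0.09 became 0.04 without that array. Marco and Timd4, receptors for particles and for phosphatidylserine, each differed by 0.02, and the endotoxin co-receptor Cd14 by 0.08 (95% interval -0.17 to 0.32). Clec4n (Dectin-2), a lectin for fungal sugars, passed the brightness level on 1 of 8 arrays and was not tested. It read 5.26 to 5.48 on Pparg null and 5.44 to 5.62 on control arrays.

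Langerhans cells could not be followed through their defining gene. Langerin (Cd207) was above the 30th percentile on 0 of 8 arrays, with 4.79 to 5.33 on Pparg null and 4.85 to 5.36 on control arrays. Epcam, an adhesion molecule of Langerhans cells that skin epithelium also makes, differed by 0.02 (95% interval -0.23 to 0.27), with 8.63 to 9.02 on Pparg null and 8.57 to 9.02 on control arrays. Of 11 tested epithelial genes 7 lay below and 4 above control, none passed, and the median difference was -0.02. The epithelial mean level was 11.49 to 11.70 on Pparg null and 11.50 to 11.66 on control arrays. The part of epithelium in the level of Epcam was not tested, and the genes described here are therefore read as macrophage and myeloid genes.

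MHC class II genes varied more between arrays of one group than between groups. H2-Ab1, the beta chain of the class II molecule I-A, read 6.55, 7.25, 6.97 and 6.36 on Pparg null arrays and 6.45, 6.92, 7.34 and 7.18 on control arrays. The low arrays were Pparg null arrays 1 and 4 and control array 1. The difference was -0.19 (95% interval -0.69 to 0.32), and -0.05 without Pparg null array 4. Its neighbour H2-Aa, the alpha chain, read 6.83, 7.40, 6.78 and 6.46 on Pparg null arrays and 6.62, 7.07, 7.18 and 6.82 on control arrays, a difference of -0.05. Cd74, the invariant chain that guards the class II groove, read 7.28, 7.11, 7.22 and 6.73 on Pparg null arrays and 6.99, 7.10, 7.42 and 7.30 on control arrays, a difference of -0.12 (95% interval -0.41 to 0.18). In all 3 genes the lowest Pparg null array was array 4, the lowest control array was array 1, and the highest control array was array 3.

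Pparg null array 4 held the lowest value for 17 of the 36 tested genes (47.2%) and for 20.4% of all tested genes. It held the highest value for none of the 36, and for 22.1% of all genes. The median of the 36 genes, each set against its mean over 8 arrays, was -0.03, 0.04, 0.08 and -0.13 on Pparg null arrays 1 to 4, against -0.04, -0.00037, 0.03 and 0.04 on control arrays 1 to 4. The Pparg null group thus held both the highest array and the lowest, with the control group between them. By role, the median on Pparg null array 4 ran from -0.42 for the antigen presentation genes to 0.04 for the lysosomal genes. For the leukocyte and macrophage identity genes it was -0.02. Pparg null array 3 was highest for 10 of the 36 genes (27.8%, beside 10.5% of all genes), among them Adgre1, Mrc1, Csf1r and Cd163. Without Pparg null array 4, 16 of the 36 genes lay below control and 20 above, with a median difference of 0.01. The medians of the other 14 lists on that array ran from -0.20 for the cytokines to 0.12 for the neutrophil genes. Low with the cytokines were the dermal fibroblast list (-0.12), the further pan-myeloid genes (-0.11) and blood endothelium (-0.08). The adipocyte list (-0.09) and the alternative activation list (-0.07) were low there as well, and lower on the other Pparg null arrays. High with the neutrophil genes were the erythroid (0.11) and lymphatic lists (0.11). Whether the whole RNA of that embryo bears on these genes was not tested.

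**Figure D3:**
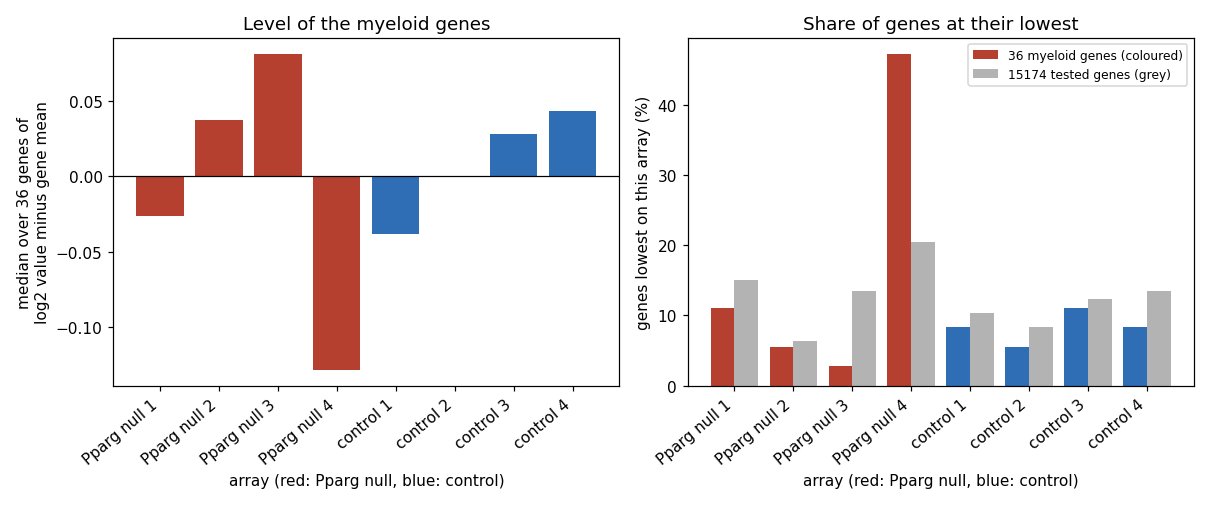
Left, median over the 36 tested myeloid genes of the log2 value minus the gene's mean, for each of 4 Pparg null arrays (red) and 4 control arrays (blue). Right, percent of the 36 genes (coloured) and of all 15174 tested genes (grey) that were lowest on each array. Pparg null array 4 stands lowest in the left panel, at -0.13, and highest in the right one, at 47.2%.

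**Figure D4:**
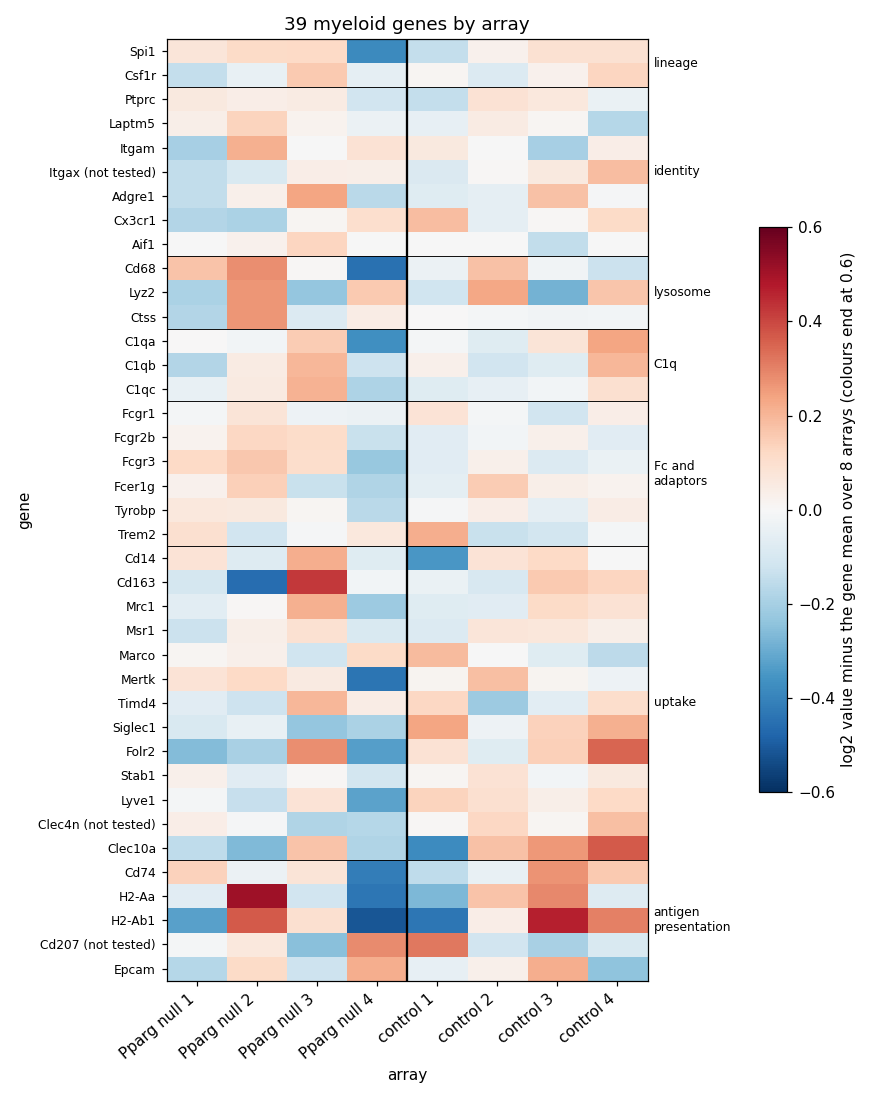
Each of the 39 genes (rows, grouped by role) on 4 Pparg null and 4 control arrays (columns, split by the black line), coloured by the log2 value minus the gene's mean over 8 arrays. Blue runs down much of the column of Pparg null array 4, with red for some genes such as Lyz2, Epcam and Cd207. The row of Siglec1 is blue or pale on all Pparg null arrays and red on control arrays 1, 3 and 4.

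The spread between arrays of a group is given here as a description. The median SD within groups was 0.14 over the 36 genes and 0.10 over all tested genes, with 0.28 for the antigen presentation genes, 0.24 for the lysosomal genes and 0.11 for the Fc receptors and adaptors.

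The lists of further pan-myeloid genes and of transcription factors of the lineage held no gene past the threshold. Of 32 further macrophage and pan-myeloid genes, 22 were tested, 12 lay below and 10 above control, and none passed the threshold or had an unadjusted limma p under 0.05. The median difference was -0.01, from -0.13 for Ms4a6c, a membrane protein of the Ms4a family, to 0.14 for the tetraspanin Cd53. Of 14 tested transcription factors of the lineage, 9 lay below and 5 above and none passed (median -0.02). Among them Nr1h3, the oxysterol receptor LXR alpha, read 6.34, 6.14, 6.18 and 6.31 on Pparg null arrays and 6.44, 6.40, 6.41 and 6.51 on control arrays. The groups did not overlap, with a difference of -0.20 (95% interval -0.33 to -0.06, limma adjusted p = 0.998). It was 1 of the 14 factors without overlap, beside 2.45% of all tested genes in either direction.

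Of 13 tested cytokines, chemoattractants and their receptors, 10 lay below and 3 above control and none passed (median -0.05). Ccl7, a chemokine that draws monocytes, read 7.31, 7.15, 7.03 and 6.89 on Pparg null arrays and 7.38, 7.50, 7.38 and 7.50 on control arrays. All Pparg null values lay below all control values, with a 1.27-fold lower mean (difference of -0.35, 95% interval -0.54 to -0.15, limma adjusted p = 0.643). It was 1 of the 13 genes without overlap, beside 2.45% of all tested genes in either direction. Ccl2, a chemokine for monocytes as well, differed by -0.22 (limma adjusted p = 0.9995).

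Of 10 tested genes of antigen presentation and dendritic cells, 6 lay below and 4 above and none passed (median -0.02). H2-DMa, which loads peptide onto class II molecules, differed by -0.17, with 6.13 to 6.22 on Pparg null and 6.24 to 6.44 on control arrays (limma adjusted p = 0.9995). Its groups did not overlap, which held for 1 of the 10 genes and for 2.45% of all tested genes in either direction. The class II beta chain H2-Eb1 differed by -0.11.

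Genes linked to PPARgamma and alternative activation of macrophages held 2 genes that fell. Of 12 listed genes 8 were tested and 2 fell past the threshold, Cd36 and Fabp4, which adipocytes also make. Over all tested genes 0.119% passed in either direction. Cd36, a scavenger receptor and fatty acid transporter, was at 8.75, 8.88, 9.09 and 8.88 on Pparg null arrays and 9.71, 9.85, 9.92 and 9.81 on control arrays (difference of -0.92, limma adjusted p = 0.00585). Fabp4, a fatty acid binding protein, was at 9.19, 9.04, 9.35 and 8.79 on Pparg null arrays and 9.97, 10.20, 10.34 and 10.38 on control arrays (difference of -1.13, limma adjusted p = 0.0189). In both genes all Pparg null arrays lay below all control arrays. The same held for Nr1h3, described above, which is in this list too. These were 3 of the 8 tested genes, beside 2.45% of all tested genes without overlap in either direction. Of the 8, 5 lay below and 3 above control (median -0.05), and Arg1, Retnla, Chil3 and Pdcd1lg2 were too dim to test. Of 8 tested adipocyte genes, 7 lay below and 1 above, and 3 fell past the threshold, beside the 0.119% of all tested genes. The adipocyte mean level was 7.64 to 7.71 on Pparg null and 8.09 to 8.27 on control arrays. Which cells carried the change in Cd36 and Fabp4 was not tested.

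**Figure D5:**
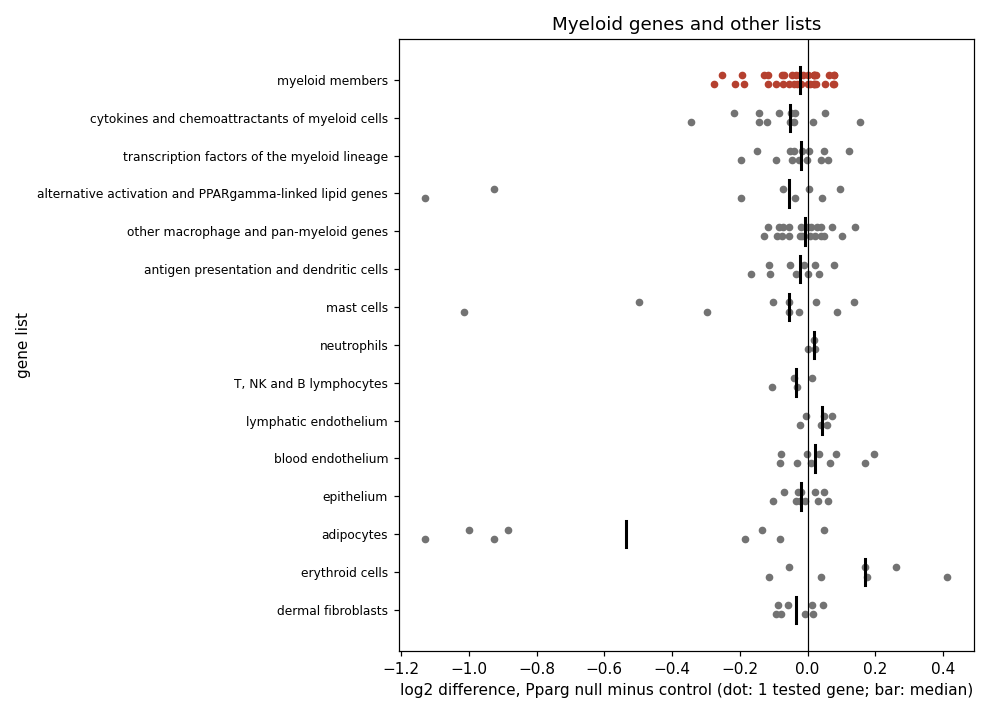
Difference of each tested gene, Pparg null minus control on the log2 scale (horizontal axis), for the 36 myeloid genes (red) and 14 other lists (grey), with a bar at each list's median. The myeloid genes lie within 0.28 of control. Cd36 and Fabp4, at -0.92 and -1.13, are the lowest points of the list of alternative activation and PPARgamma-linked lipid genes, and lie with Lpl (-1.0004) and Plin1 (-0.88) at the low end of the adipocyte list, while Tpsab1 of the mast cell list is at -1.01.

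Other cells of the blood and skin gave the following background, and none of their genes passed. Of 12 neutrophil genes 3 were tested, and all 3 lay at or above control, by at most 0.02. Of 16 lymphocyte genes 4 were tested, with 3 below and 1 above control and a median of -0.04. Of 10 blood endothelial genes 4 lay below and 6 above, with a median of 0.02. Erythroid genes lay mostly above control, at 5 of 7 with a median of 0.17, and dermal fibroblast genes mostly below, at 5 of 8 with a median of -0.03. Groups without overlap were found here too, for 2 of the 7 erythroid genes (Car1, higher, and Epor, lower). Among the 8 fibroblast genes they were found for 1 (Dpt, lower), and for 0 neutrophil, lymphocyte and blood endothelial genes. Over all tested genes the share was 2.45% in either direction. Car1 was dim, above the 30th percentile on 4 of 4 Pparg null arrays and 0 of 4 control arrays. It met the brightness filter through the Pparg null arrays only.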

How the data were processed

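Full-thickness skin RNA was extracted with Trizol and columns, 100 ng was amplified with a whole-transcript kit, and 5.5 μg of cDNA was labelled with biotin, per the labels' protocols. Expression Console (Affymetrix) and its RMA method gave the deposited log2 values, per the submitters' processing notes. This method subtracts background, brings all arrays to the same distribution and summarizes probes, so a shift of all genes together cannot be seen. Tool versions and the annotation build are not given in the sources at hand. Of 35556 clusters, 21789 had 1 gene symbol in the platform annotation, 1621 several and 12146 none, and 21698 symbols were updated by gene ID through RefSeq (GRCm38.p6). Where a gene had several clusters, the one of highest mean was used.

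The fit was limma (version 3.58.1, R 4.3.3), Pparg null minus control with no covariate, on 15174 genes, two-sided, with Benjamini-Hochberg adjustment over all of them. Single genes were also tested by exact permutation (scipy 1.17.1). The fit was tested on simulated data. The members and lists were chosen with earlier results of these data known. Values on each array are given for the 14 myeloid genes with the smallest unadjusted p and for others where a result turns on them, and up to 3 genes of each other list with the smallest unadjusted p are named. The alternatives were other filters, scalings, priors, array weights, a replicate block, other uses of several clusters, stricter thresholds and fewer arrays.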

Additional observations from a re-analysis of the deposited data

Results flagged for a closer look

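Of 80 groups of 4 values, 5 held an array well apart from the other members of its group. By chance about 4 such groups, 1 in 20, would be expected. Genes read on the same arrays are not independent, so the count was not tested against that number. Of these 5, 4 concern Pparg null array 4. On it Spi1 read 7.44 against 7.90 to 7.95 on the other Pparg null arrays, Mertk 7.79 against 8.28 to 8.34, Fcgr3 8.55 against 8.88 to 8.94, and Ptprc 7.33 against 7.49 to 7.51. In the control group, Aif1 read 5.61 on array 3 against 5.75 to 5.76 on the others. Aif1 was dim, and control arrays 2 and 4 had an identical value, so the distance of array 3 is set against a very narrow range.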

How the results depend on the processing

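No myeloid gene passed an adjusted p of 0.05 in limma under any setting, and the lowest adjusted p of any of them was 0.396, for Siglec1 (0.396 to 0.99998 over its settings). The 638 values under other settings held 68 changes of sign, none of a gene past the threshold, and 14 genes kept their sign throughout, among them Siglec1, Folr2 and Lyve1. The median difference ran from -0.04 to 0.01. With arrays centred on their median the sign turned for Cd68 (-0.0060), Fcgr1 (-0.0092) and Lyz2 (-0.010), and with cyclic loess for Fcgr1 (-0.0022). With array weights it turned for Adgre1 (0.011), C1qb (0.018), Epcam (-0.0079), H2-Aa (0.047), Lyz2 (-0.019), Mrc1 (0.0083), Spi1 (0.030) and Tyrobp (0.014). Without control array 1 and Pparg null array 4 together it turned for Adgre1 (0.0021), C1qb (0.022), Epcam (-0.064), Lyz2 (-0.091), Mertk (0.028), Mrc1 (0.0061), Spi1 (0.032) and Tyrobp (0.035). Leaving out 1 array turned it for Adgre1 (-0.10 to 0.035), C1qb (-0.093 to 0.041), C1qc (-0.048 to 0.084), Cd14 (-0.028 to 0.13), Cd163 (-0.23 to 0.064), Cd68 (-0.086 to 0.16), Cd74 (-0.19 to 0.0038), Csf1r (-0.10 to 0.00027), Ctss (-0.060 to 0.087), Epcam (-0.059 to 0.094), Fcgr1 (-0.035 to 0.030), H2-Aa (-0.23 to 0.081), Itgam (-0.013 to 0.12), Lyz2 (-0.092 to 0.079), Marco (-0.031 to 0.085), Mertk (-0.15 to 0.038), Mrc1 (-0.11 to 0.035), Ptprc (-0.028 to 0.058), Spi1 (-0.089 to 0.086), Timd4 (-0.043 to 0.071), Trem2 (-0.023 to 0.094) and Tyrobp (-0.036 to 0.039).

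The 1 myeloid gene without overlap became 0 with the 50th percentile filter, which leaves Siglec1 untested, 3 without control array 1 and Pparg null array 4 together (Siglec1, Clec10a and Fcgr3; 8.33% of the 36, beside 8.32% of all genes), and 1 to 3 when 1 array was left out (2.78% to 8.33%, beside 4.13% to 5.32% of all genes), since smaller groups overlap less often. It was 3 without Pparg null array 3 (Siglec1, Folr2 and Lyve1; all genes 4.65%), 2 without Pparg null array 4 (Siglec1 and Fcgr3; 4.995%), 2 without control array 1 (Siglec1 and Clec10a; 5.27%) and 2 without control array 3 (Siglec1 and Lyve1; 5.32%). The 18 genes called over the whole table became 3 at an adjusted p of 0.01, 1 with every cluster tested on its own, and 3 to 15 when 1 array was left out. With the replicate block 1 gene was called. For replicate numbers 1 to 4, deviations from the group means correlated between the 2 arrays of a number at r = -0.31, 0.20, 0.05 and -0.03 across genes. Whether arrays of the same number form pairs was not tested. Signal over background limits Cd207, Itgax and Clec4n, which were too dim to test. It also bears on Clec10a, above the 30th percentile on 6 of 8 arrays, and on Aif1, Cd14 and Timd4, on 7 of 8.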
